A study of Arabidopsis thaliana with 11 samples.

Results

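The 10 genes described here drive plant cells through mitosis and carry out the last step of division. They were taken from a list of names and loci that uses no measured value, although earlier results of these data were known when the list was made, and they make up 10 of the 27588 genes in the deposited count table. They are the 4 B1-type cyclins CYCB1;1 (AT4G37490), CYCB1;2 (AT5G06150), CYCB1;3 (AT3G11520) and CYCB1;4 (AT2G26760), the A-type cyclin CYCA1;1 (AT1G44110), the 4 B-type cyclin-dependent kinases CDKB1;1 (AT3G54180), CDKB1;2 (AT2G38620), CDKB2;1 (AT1G76540) and CDKB2;2 (AT1G20930), and the cytokinesis syntaxin KNOLLE (AT1G08560). RNA-seq was performed on seed tissue of F1 seeds from crosses in which the father was always wild-type Ler. The mother was wild-type Col-0 (H1/H1 seeds) or a Col-0 plant with all 3 linker histone genes mutated, by the allele h1.1-1 at H1.1, h1.2-2 at H1.2 and h1.3-1 at H1.3 (h1/H1 seeds). The h1/H1 seeds still carried a wild-type copy of each H1 gene from the father, and endosperm was taken by hand 8 days after the cross, so that neighbouring tissue could be included. The question asked here was whether the machinery of cell division differed between the crosses.

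On TAIR10.1 (1-based), the B1-type cyclins lie, in the order above, at chr4:17621886-17624308, chr5:1859279-1861703, chr3:3625286-3627273 and chr2:11401118-11403433, and the A-type cyclin at chr1:16774765-16777352. The kinases lie at chr3:20059671-20061488, chr2:16152473-16154086, chr1:28720328-28722550 and chr1:7292389-7294746, and KNOLLE, which RefSeq names SYP111, at chr1:2709525-2711000.

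Plant cyclins bind cyclin-dependent kinases and switch them on, and the B1-type cyclins and B-type kinases are made mainly from late S phase to mitosis, so that their transcripts mark cells that are preparing to divide. KNOLLE is a syntaxin that fuses vesicles at the plane of division, where the new cell wall is built. The endosperm of Arabidopsis first divides its nuclei without walls and then becomes cellular, after which division slows. In bulk tissue, fewer dividing cells and less transcript per cell cannot be told apart.

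Many genes of this phase share a short promoter element, the mitosis-specific activator (MSA), which MYB3R transcription factors bind. The sequence around the start of each gene is shown here for that reason, since the letters are common to genes whose levels are compared below. The core AACGG was searched on both strands from 250 bases before to 50 bases after the annotated start, in the RefSeq genome of Col-0 (TAIR10.1). It was present in 7 of the 10 windows, against 24.6% of the 27388 protein-coding genes searched in the same way, and 6 of the 10 had 2 or more copies, against 4.9%. The core was not particular to the 10. Of 29 other mitosis and cytokinesis genes, 19 had it (65.5%), and 37.9% had 2 or more copies. It was in 35.7% of 14 DNA replication genes and in 39.1% of 23 genes of G1 entry, RB-E2F and CDK inhibitors. The copies numbered 5 for AT5G06150, 3 each for AT4G37490, AT3G11520, AT1G44110 and KNOLLE, 2 for AT2G26760 and 1 for AT1G20930. The windows of the 3 other B-type kinases held none. One stretch of 30 bases per gene, and a pair for each of AT5G06150 and AT3G11520, is printed along the strand of the gene. The core is in capitals (CCGTT is the core read from the opposite strand).
AT4G37490, chr4:17624352-17624381, minus strand, core 61 bases before the start: aaaacaatcagaCCGTTggggttcatttat
AT5G06150, chr5:1861755-1861784, minus strand, core 69 bases before the start: ctaacctatccaCCGTTagatctaaaattt
AT3G11520, chr3:3627320-3627349, minus strand, core 64 bases before the start: cctccttatccaCCGTTagatttaaagttc
AT5G06150, chr5:1861729-1861758, minus strand, core 43 bases before the start: atttaatcatctAACGGcaacagatgaaat
AT3G11520, chr3:3627295-3627324, minus strand, core 39 bases before the start: agttcatcatccAACGGctagaagtctaat
AT2G26760, chr2:11401133-11401162, plus strand, core from base 28 of the transcript: ctcttcgtccccAACGGctagtaataaaaa
AT1G44110, chr1:16777327-16777356, minus strand, core from base 9 of the transcript: cacttcaaaatcAACGGtcacgatcattcc
AT1G20930, chr1:7294818-7294847, minus strand, core 89 bases before the start: agaaaaaaagaaCCGTTgaaaaaacatgag
AT1G08560 (KNOLLE), chr1:2710951-2710980, minus strand, core from base 37 of the transcript: gcgaagaaatcacagtAACGGctaatttct

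AT5G06150 and AT3G11520 held the core in both orientations at almost the same distances from their starts, and the printed stretches shared 23 of 30 and 21 of 30 bases. These counts include the 5 bases of the core, on which the stretches were aligned. The stretches of each gene overlap by a few bases, and no other pair of genes was scored. For contrast, the letters TTTCCCGC or TTTGGCGC, which are bound by the E2F factors of the G1-to-S transition, were in none of the 10 windows. They were in 7 of 14 windows of DNA replication genes and in 1.21% of all windows. A match of letters is a description of the sequence, and binding was not measured.

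The deposited whole read counts of 6 libraries could be assigned to a group. Libraries A and B were H1/H1 endosperm, C, D and E were h1/H1 endosperm, and F was an H1/H1 library whose column name gives embryo. Their totals ran from 13726579 to 20939575 reads. The series lists 11 samples, among them 3 of H1/H1 endosperm, of which 2 were used, and the comparison of embryos was not analysed here. The mutated genes followed the labels. Levels are given as CPM, a gene's reads scaled to the normalized library total, in the order A, B for H1/H1 and C, D, E for h1/H1. H1.2 was at 78.2 and 51.5 CPM in H1/H1 and at 21.96, 26.4 and 19.99 in h1/H1, and H1.1 was at 183.4 and 105.9 against 41.4, 92.0 and 72.7. H1.3 had 14 and 9 reads in H1/H1 and no read in any h1/H1 library, where a count of 0 allows up to 3 reads per library. Library B stood apart in 9 heat stress genes, whose CPM summed to 3700 in B and to between 152.6 and 658.4 in the other endosperm libraries. The markers gave F no clear tissue. Of the genes that mark the shoot pole of the embryo, DRN and CUC2 had no read in F, WUS had 1 and STM 12. These genes were as good as absent in the endosperm libraries too (0 to 8 reads). CUC1 was not near 0, with 89 reads in F and 71 to 325 in the endosperm libraries. Its level in F, 4.51 CPM, was below all 5. The 10 embryo markers summed to 88.6 CPM in F and to 114.3 to 175.0 in endosperm, and the 7 endosperm markers to 104.4 and to 55.97 to 93.97. The first sum was mostly WOX9 (78.3 CPM in F), and the second, in the endosperm libraries, was mostly ZOU. Among the endosperm markers, PHE1 had 670 reads in F and 0 to 13 in the others, and FIS2 and FWA were also above all 5. In F, ZOU, at 47.8 CPM, was below all 5, and MINI3 and IKU2 had no read. F is therefore called the library labelled embryo and is set beside the endosperm groups without a test. Its values are not taken as those of embryo. In the endosperm libraries MINI3 had no read, PHE1 and IKU2 had none in 2 and 3 of the 5, respectively, and ZOU, needed for endosperm breakdown, had 676 to 1542 reads in them. Of 10 embryo markers, 7 had at most 24 reads in any endosperm library, whereas WOX9 had 1323 to 2858, and WOX8 and CUC1 lay between.

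All 10 genes were read in every library, from 106 reads (the A-type cyclin in D) to 3832 reads (KNOLLE in E), and all passed the filter of a mean of 10 counts, as did 18951 genes in all. To compare levels between genes, CPM was divided by the exonic length in kilobases and averaged over the 5 endosperm libraries. KNOLLE was the highest, at 115.8 ± 38.3 CPM per kb (SD, n = 5), and its lowest library (63.6) lay above the highest library of any other of the 10. The kinase AT1G76540 came next at 39.4 ± 5.60 (SD, n = 5), although its lowest library, at 30.4, overlapped the highest of AT5G06150, at 31.1. That cyclin was at 20.3 ± 7.06 (SD, n = 5). Below these, 7 genes lay between 15.8 and 7.26 CPM per kb, in the order AT2G26760, AT1G20930, AT3G11520, AT3G54180, the A-type cyclin, AT2G38620 and AT4G37490. Each neighbouring pair in that order overlapped in its range over libraries. The B1-type cyclin with the lowest level, AT4G37490 at 7.26 ± 1.44 (SD, n = 5), is the one most often used as a reporter of mitotic cells. Among libraries of endosperm, the highest was more than 2-fold above the lowest for 5 of the 10 genes, against 51.0% of all genes tested.

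**Figure D1:**
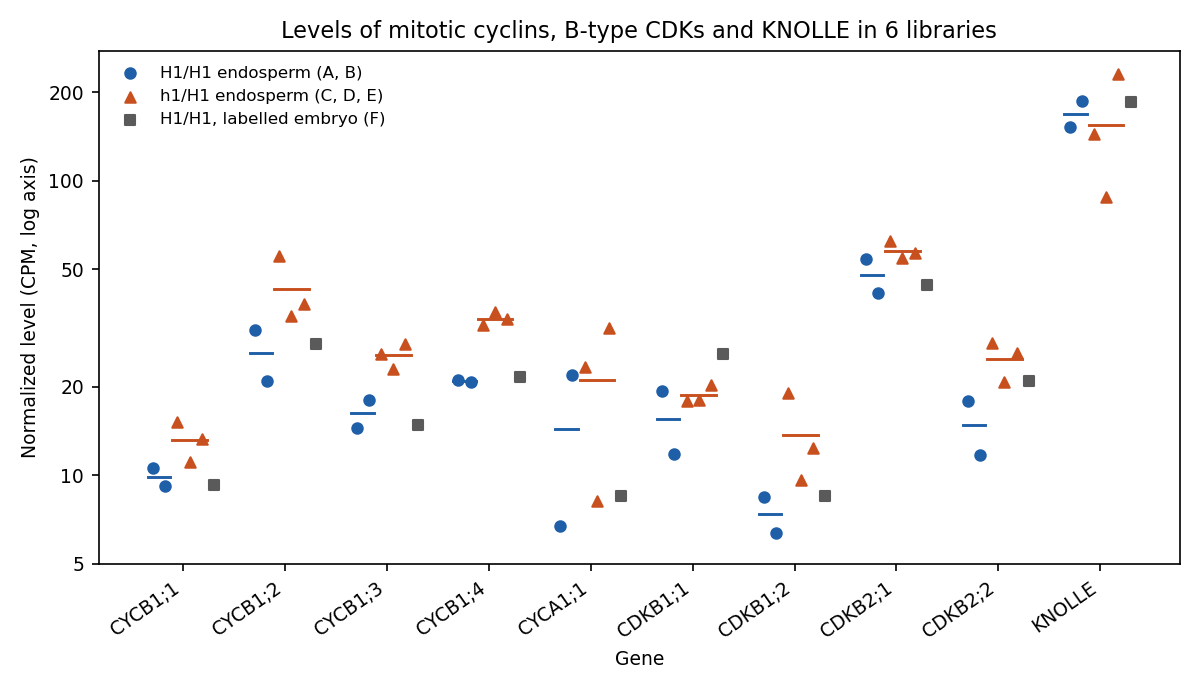
Normalized level (CPM, log axis) of the 10 genes in each library, with circles for H1/H1 endosperm (A, B), triangles for h1/H1 endosperm (C, D, E), squares for the library labelled embryo (F) and bars for group means. All 3 triangles lie above both circles for 7 of the 10 genes, while the groups of the A-type cyclin, CDKB1;1 and KNOLLE overlap.

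The B1-type cyclins were higher in every h1/H1 endosperm library than in either H1/H1 library. CYCB1;4 was the tightest of the 10. It was at 21.1 and 20.8 CPM in H1/H1 and at 32.4, 35.7 and 33.8 in h1/H1. The means were 20.9 ± 0.227 (SD, n = 2) and 34.0 ± 1.64 (SD, n = 3), 1.63-fold apart, and the log2 difference between the crosses was 0.70 ± 0.26 (SE), with an unadjusted p = 0.0248 in edgeR's quasi-likelihood test. The gap between the groups was thus several times the spread within either, yet the p adjusted over all genes tested was 1.0, as it was for each of the 10 genes. CYCB1;3 was at 14.5 and 18.1 CPM in H1/H1 and at 25.8, 22.9 and 27.8 in h1/H1. Its means were 1.57-fold apart, with a log2 difference of 0.65 ± 0.29 (SE) and an unadjusted p = 0.0553 in edgeR's test. The groups did not overlap, and D was the lowest of the 3 h1/H1 libraries.

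CYCB1;2 was at 31.1 and 21.0 CPM in H1/H1, against 55.4, 34.9 and 38.2 in h1/H1, and the means were 26.0 ± 7.20 (SD, n = 2) and 42.8 ± 11.01 (SD, n = 3). The log2 difference was 0.72 ± 0.32 (SE), with an unadjusted p = 0.0554 in edgeR's test, and it was 0.46 without B. The step from the higher H1/H1 library to the lowest h1/H1 library was small beside the distance from D to C, so the groups were separate but each was wide. CYCB1;1 showed the smallest difference of the 4, from 10.5 and 9.21 CPM to 15.1, 11.1 and 13.3. The log2 difference was 0.41 ± 0.34 (SE). The lowest h1/H1 library, D, lay just above A, so that the groups were separate by less than the distance between A and B.

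Summed over the 4 B1-type cyclins, the level was 77.2 and 69.0 CPM in H1/H1 and 128.7, 104.5 and 113.1 in h1/H1. The means were 73.1 ± 5.83 (SD, n = 2) and 115.4 ± 12.3 (SD, n = 3). The summed values of the crosses did not overlap, and the library labelled embryo, at 73.6 CPM, lay between A and B.

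The A-type cyclin had overlapping groups. It was at 6.74 and 21.9 CPM in H1/H1 and at 23.3, 8.20 and 31.7 in h1/H1. The highest endosperm library was 4.70-fold above the lowest, the widest range of the 10, and each cross held both low and high libraries. The log2 difference was 0.56 ± 0.64 (SE). It was 1.65 without B and -0.052 without A, so that single H1/H1 libraries set its size and its sign.

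The B-type kinases, which are particular to plants and peak at the entry to mitosis, divided into genes with separate groups and 1 without. CDKB2;2 was at 17.8 and 11.8 CPM against 28.0, 20.7 and 25.97, with means of 14.8 ± 4.28 (SD, n = 2) and 24.9 ± 3.77 (SD, n = 3). The log2 difference was 0.75 ± 0.32 (SE), with an unadjusted p = 0.0477 in edgeR's test, and it was 0.49 without B. CDKB1;2 was at 8.43 and 6.37 CPM against 19.0, 9.66 and 12.4, and had the largest estimate of the 10, 0.89 ± 0.42 (SE). The groups were separate, but the mean of h1/H1, 13.7 ± 4.81 CPM (SD, n = 3), leaned on C, and the estimate was 0.58 without it.

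CDKB2;1, the most abundant kinase per exonic length, was at 54.1 and 41.5 CPM in H1/H1 and at 62.4, 54.8 and 56.7 in h1/H1. Here D was barely above A, and the log2 difference was 0.28 ± 0.25 (SE), with 0.10 without B and 0.48 without A. CDKB1;1 was the one kinase whose groups overlapped, with 19.3 and 11.8 CPM in H1/H1 against 17.8, 17.9 and 20.3 in h1/H1. Its log2 difference of 0.26 ± 0.32 (SE) became -0.048 without B. The 4 kinases together were at 99.7 and 71.4 CPM in H1/H1 and at 127.3, 103.1 and 115.3 in h1/H1, where D again lay close to A. The kinases of each family are close paralogs, as are AT5G06150 and AT3G11520, and the counting could have split reads between them.

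KNOLLE was the only one of the 10 with an estimate below 0. It was at 152.1 and 186.3 CPM in H1/H1 and at 144.4, 88.1 and 231.4 in h1/H1, so that the h1/H1 libraries held both the lowest and the highest value. The log2 difference was -0.13 ± 0.39 (SE), and it was 0.026 without B and 0.15 without D. Because KNOLLE is the most abundant of the 10, its share of their summed CPM was 45.3% and 53.5% in H1/H1 and 34.1%, 29.0% and 47.1% in h1/H1, which overlap.

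Under edgeR's quasi-likelihood test, with limits of 0.05 for the adjusted p and 2-fold for the change, none of the 18951 genes tested was called between the crosses (0.0%), and so none of the 10. Genes called by these limits numbered 109 without A, 9 without B and 0 without C, D or E, and the 10 were never among them. At an unadjusted p under 0.05 there were 706 genes in either direction (3.73%), of which 1.96% of all tested were higher in h1/H1, and 2 of the 10 were among the latter. DESeq2 called 50 genes, none of them among the 10, and its lowest adjusted p for the 10 was 0.59. With 2 libraries against 3, an exact permutation test of a single gene cannot go below p = 0.1. The labels do not say that libraries of a group came from separate plants (the study's methods describe independent sets of RNA), so these p-values measure the spread between the libraries only.

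The direction was shared more widely than the calls show. The estimate was above 0 for 9 of the 10 genes, against 48.1% of all genes tested, with a median log2 difference of 0.60 beside -0.02. All h1/H1 libraries lay above both H1/H1 libraries for 7 of the 10, against 7.84% of all genes, and the reverse held for none of the 10, against 8.18%. The exceptions were the A-type cyclin, AT3G54180 and KNOLLE. When the library labelled embryo was counted with A and B, 6 of the 10 were still separate, against 5.09%, and the gene that dropped out was AT1G20930. These shares describe 10 related genes read in the same libraries and are not a test.

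A was above B for 7 of the 10 genes, against 51.5% of all genes. Library B is the one with the high heat stress genes, and a link to the 10 genes was not tested. Without B, every h1/H1 library was above A for 8 of the 10, against 21.3% of genes, with a median log2 difference of 0.47. Without A, every h1/H1 library was above B for 8 of the 10, against 26.0%, and the median was 0.59. Within h1/H1, D was the lowest library for 8 of the 10 genes, against 35.2%. Thus most of the 10 genes were higher in h1/H1 than in either H1/H1 library taken alone.

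Genes beyond the 10 were read from lists of the cell cycle. Of 29 other genes of mitosis and cytokinesis, none was called, 26 had an estimate above 0 (89.7%, against 48.1% of all genes) and the median log2 difference was 0.36. All h1/H1 libraries lay above both H1/H1 libraries for 6 (20.7%, against 7.84%). CDC20.1, an activator of the anaphase-promoting complex that destroys B-type cyclins, was at 31.3 and 32.8 CPM in H1/H1 and at 77.5, 48.2 and 42.6 in h1/H1. Its log2 difference was 0.81 ± 0.32 (SE), with an unadjusted p = 0.0346 in edgeR's test, the only one of the 29 under 0.05. The cyclin CYCA2;2 (AT5G11300, 0.93 ± 0.50, SE), the kinesin POK1 that marks the division plane (0.67 ± 0.38, SE) and CYCB2;1 (0.66 ± 0.49, SE) had large estimates but overlapping groups. By subgroup the median log2 difference was 0.52 for 9 other cyclins, 0.41 for 8 cytokinesis genes, 0.33 for 8 kinases and spindle genes and 0.31 for the 4 MYB3R factors.

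The 14 DNA replication genes, which act in S phase, had a median log2 difference of 0.26. Of these, 12 had an estimate above 0 (85.7%), but the groups were separate, with h1/H1 above, for 1 of the 14, MCM4 (7.14%, against 7.84% of all genes). The licensing factors CDT1a (0.64 ± 0.34, SE) and CDC6 (0.60 ± 0.68, SE) and the helicase subunit MCM7 (0.51 ± 0.41, SE) were above 0, and CDC45, which joins that helicase, was at -0.74 ± 0.63 (SE). The median level of the 14 on the log2(CPM + 1) scale was 5.20 and 4.33 in H1/H1, against 5.36, 4.76 and 5.33 in h1/H1, so that A lay among the h1/H1 libraries and B was the lowest. This differs from the 9 cyclins and kinases of the 10, which summed to 183.6 and 162.3 CPM in H1/H1 and to 279.3, 215.9 and 260.2 in h1/H1. The ratio of the 9 genes to the replication genes, both as summed CPM, was 0.355 in A and 0.649 in B, with all h1/H1 libraries (0.557, 0.546 and 0.527) between them. The ratio therefore did not separate the crosses.

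The 23 genes of G1 entry, the RB-E2F switch and the CDK inhibitors had a median log2 difference of -0.02, the same as all genes, and 10 of the 23 were above 0 (43.5%). The G1 cyclins CYCD4;1 (1.27 ± 0.61, SE) and CYCD3;1 (0.96 ± 0.50, SE) and the mitotic inhibitor kinase WEE1 (0.65 ± 0.39, SE) had separate groups with h1/H1 above, and E2FA (0.70 ± 0.57, SE) did not. These were 3 of the 23 (13.0%, against 7.84% of all genes). Groups were separate with h1/H1 below for 1, LGO, at -0.39 ± 0.47 (SE) (4.35%, against 8.18%). The 12 inhibitors and endocycle genes had a median of -0.19.

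**Figure D2:**
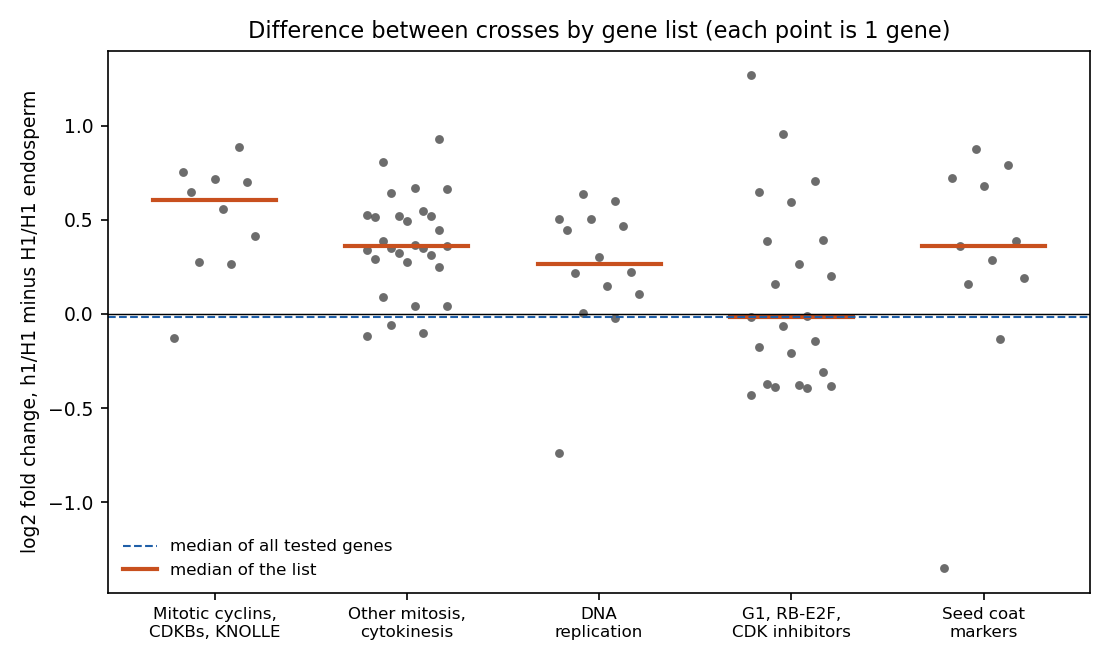
The log2 difference (h1/H1 minus H1/H1, endosperm) for every tested gene of 5 lists, each point 1 gene, with a thick bar at the list's median and a dashed line at the median of all tested genes. The medians fall from 0.60 in the 10 genes through 0.36 in other mitosis genes and 0.26 in replication genes to -0.02 in the G1 and inhibitor genes, and the seed coat markers lie at 0.36.

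Seed coat markers were also mostly higher in h1/H1. Of 11 markers of this maternal tissue around the endosperm, none was at 0 in any library. An estimate above 0 was found for 9 (81.8%, against 48.1% of all genes), and the median log2 difference was 0.36. Their summed level was 4238 and 5641 CPM in H1/H1, 7682, 6767 and 6219 in h1/H1 and 5283 in F. The crosses did not overlap in this sum, most of which came from TT10. That gene alone did overlap, at 2372 and 4105 CPM in H1/H1 against 4549, 3976 and 3323 in h1/H1. MUM4, a mucilage gene, was at 858.6 and 1071 CPM against 1710, 1595 and 2009, and GL2 and TT8 were likewise separate. Groups were thus separate, with h1/H1 above, for 3 of the 11 (27.3%, against 7.84% of all genes). None of the 11 was called, and the transporter gene TT12 was at -1.35 ± 0.94 (SE). The part of the seed coat in the levels of the 10 genes was not tested. The 9 heat stress genes all had estimates below 0, with a median of -3.88, and none was called. Library B had 3700 CPM of them in sum, A had 486.3, and the h1/H1 libraries had 658.4, 152.6 and 405.9. In this sum A lay within the range of h1/H1, and B alone was high. Gene by gene, however, all h1/H1 libraries lay below both A and B for 5 of the 9 (55.6%, against 8.18% of all genes).

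**Figure D3:**
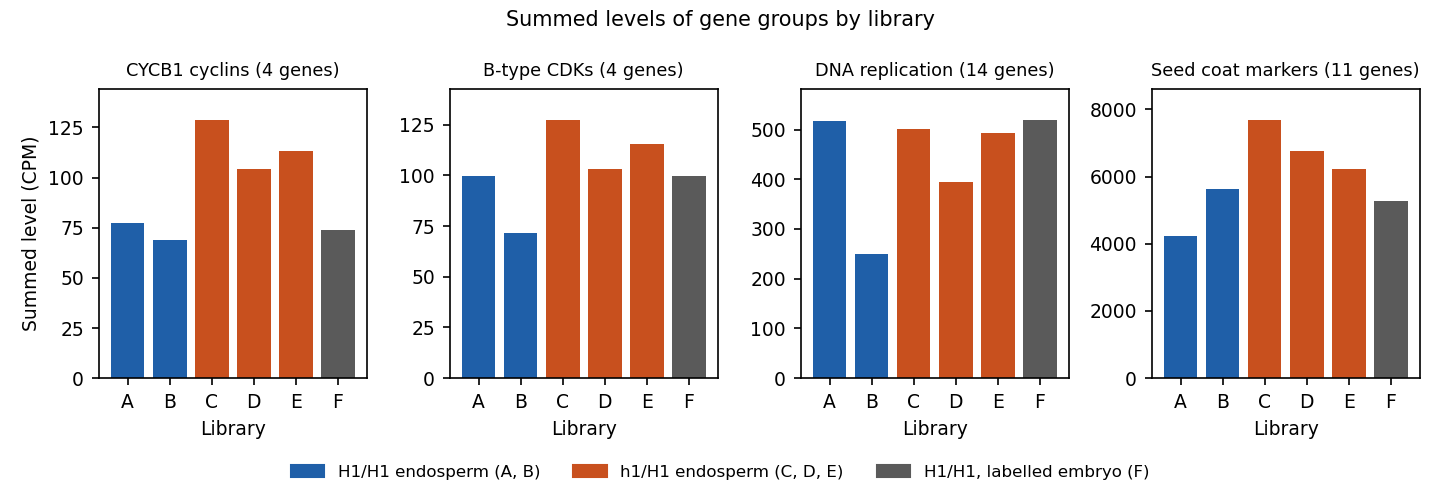
Summed levels (CPM, bars from 0) of 4 gene groups in libraries A to F. The sums of the B1-type cyclins and of the seed coat markers (mostly TT10) are higher in C, D and E than in A, B and F. The replication genes are lowest in B.

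In the library labelled embryo, none of the 10 genes was 2-fold above or below the mean of A and B. The same held for most genes tested, as 6.79% were above and 7.42% below by this limit. For 6 of the 10, F lay below all h1/H1 libraries, against 25.3% of all genes tested. CDKB1;1 stood apart, at 25.9 CPM in F and 11.8 to 20.3 CPM in endosperm, above all 5 endosperm libraries, which 17.7% of genes were, and none of the 10 was below all 5, against 16.5%. KNOLLE was at 185.8 CPM in F, the A-type cyclin at 8.46 and the cyclin AT2G26760 at 21.6, next to the 21.1 and 20.8 of A and B. Among the 29 other mitosis genes F was below all 5 endosperm libraries for 11, and among the 14 replication genes it was above all 5 for 4. F is 1 library, so these positions have no replicate check.

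A separate deposited table assigned reads to the mother or the father by the bases at which Col-0 and Ler differ. Maternal reads could be compared for 4 of the 10 genes. For AT5G06150, AT1G76540 and KNOLLE the table held 0 maternal reads in every library, and 0 paternal reads in F. Each of these had at least 405 reads per library in the count table. Their zeros therefore mean that no read was assigned, and they give no measure of the maternal level. In 3 others there were 14 maternal reads at most. Of the 9981 genes tested on maternal reads, 1 was called by edgeR (0.01%), AT1G67105, with 0 and 1 reads in H1/H1 against 125, 95 and 157 in h1/H1, and none of the 4. DESeq2 called 11 genes, and edgeR called 35 without A, 15 without B and 0 without C or E. At an unadjusted p under 0.05 there were 3.85% of the genes, and 1 of the 4. That gene, CYCB1;3, had 10 and 20 maternal reads in H1/H1 against 35, 31 and 32 in h1/H1, at smaller library totals. Its log2 difference was 1.5 ± 0.51 (SE), with an unadjusted p = 0.0149 and an adjusted p = 0.981 in edgeR's test. All 3 h1/H1 libraries lay above both H1/H1 libraries, as for 9.98% of the genes tested.

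AT2G38620 had 34 and 36 maternal reads against 79, 27 and 39. Scaled to the maternal library totals, these were 37.8 and 36.1 CPM against 107.5, 40.8 and 47.5, so that the groups were separate here too. The log2 difference was 0.82 ± 0.51 (SE), and 0.26 without C. The other 2 genes had overlapping groups. The A-type cyclin, with 14 and 67 against 13, 14 and 50, was low in A, C and D, and stood at -0.31 ± 0.71 (SE). AT1G20930 had 30 and 28 against 9, 22 and 33, and the difference was -0.10 ± 0.56 (SE), whereas with all reads all 3 h1/H1 libraries were above both H1/H1 libraries. The library with the highest level over all reads, C, had the fewest maternal reads of this gene. These counts are small, and the total of maternal reads was 705347 to 1016576 per library.

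Both parents were read in F alone, since the Ler reads of the endosperm libraries were not used. Over all loci 82.1% of its assigned reads were maternal (95% Wilson interval 82.0 to 82.2). For embryo, the paper expected equal maternal and paternal reads in its DNA libraries. The RNA reads of F were thus far more maternal than an embryo's genome, and the reason was not tested. Over the 10 genes the share was 78.2%, or 133 maternal and 37 paternal reads (71.5 to 83.8). AT5G06150, AT1G76540 and KNOLLE had no assigned read. The A-type cyclin had 18 maternal and 13 paternal reads, 58.1% (40.8 to 73.6), an interval that lies below the share over all loci. AT2G38620 (CDKB1;2) had 45 and 3, 93.8% (83.2 to 97.9), an interval above it. The intervals of AT3G11520, at 78.3% (58.1 to 90.3), and of AT1G20930, at 75.9% (63.1 to 85.4), included it. Seed coat markers were almost wholly maternal, with 99.7% for both BAN and GL2, and the endosperm gene ZOU was at 74.9%. All intervals cover counting error only.

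**Figure D4:**
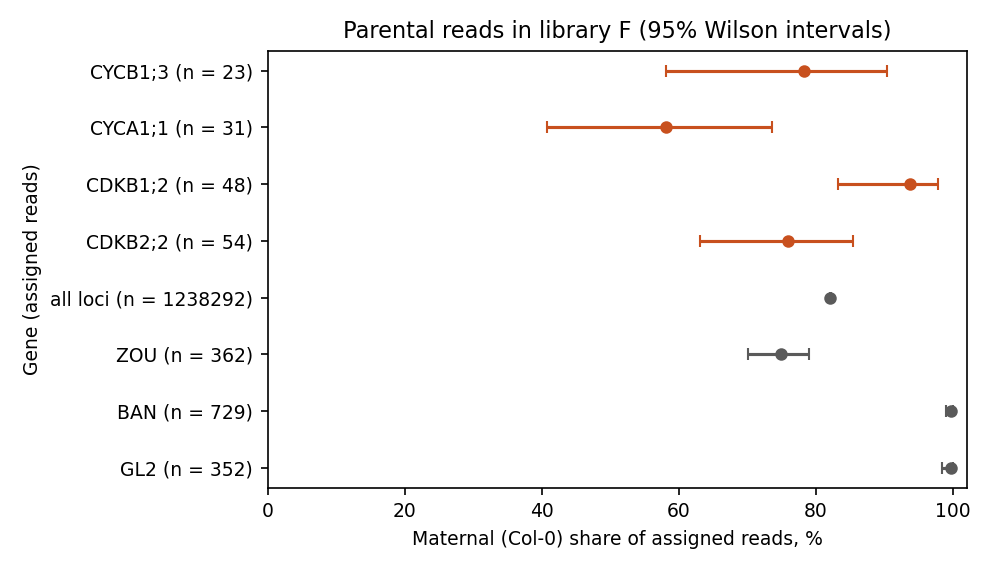
Maternal (Col-0) share of parent-assigned reads in library F, in percent, for the 4 of the 10 genes with over 20 assigned reads, for all loci and for 3 marker genes, with 95% Wilson intervals and the number of reads beside each name. The A-type cyclin at 58.1% and CDKB1;2 at 93.8% lie on opposite sides of the 82.1% over all loci.

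The mean profile of the 10 genes over the 6 libraries, on a log2(CPM + 1) scale centred on each gene's own mean, was -0.23, -0.28, 0.38, -0.09, 0.37 and -0.16 from A to F. Of the 15963 genes that averaged 50 counts or more, 5 had the nearest profiles, with root-mean-square differences of 0.07 to 0.09. They were the histone H2A gene HTA2, LTA2 (AT3G25860), PRA1.B2, AT2G41640 and AT2G07170. HTA2 was at 32.2 and 30.1 CPM in H1/H1, against 46.5, 38.7 and 47.0 in h1/H1. None of the 5 belonged to the lists of cell cycle genes. Among the 10 themselves, AT4G37490 was the closest to the mean (0.10, rank 12), and the A-type cyclin (0.66) and KNOLLE (0.46) were the farthest. The profiles rest on 6 libraries that were normalized together, so that likeness is a description.

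Some neighbours among the cell cycle genes were chosen after their values were seen. AT5G06150 and AT2G38620 were each other's nearest of 75 such genes (0.10), and so were AT3G11520 and AT2G26760 (0.15). AT3G54180, the kinase that was high in F, was nearest to the replication genes MCM6 (0.13) and MCM4 (0.14). KNOLLE had no neighbour nearer than 0.23.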

How the data were processed

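Reads were trimmed with fastp and assigned to TAIR10 transcripts with Salmon 1.9.0 by the authors, who deposited whole read counts for 27588 genes. The file name calls these counts normalized, but the values are whole and their totals differ between libraries. How transcripts were summed to genes, and whether strand was used, is not given in the sources used here. The deposited allele counts are reads assigned to Col-0 or Ler on TAIR8 cDNA. Columns are named by library number, and 6 of them are tied to a cross and a tissue by the column names of the allele counts. The 10 other columns of per-sample values were not used, 5 in the count table because their names give no group and 5 of Ler reads from endosperm because a group may hold no more columns than it has samples.

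Counts were normalized by TMM and compared in 1 fit with edgeR 4.0.16 (R 4.3.3), quasi-likelihood test, group means with F as a group of its own, genes averaging 10 counts or more, Benjamini-Hochberg over all tested genes, adjusted p of 0.05 and 2-fold. Standard errors were derived from each log2 fold change and its F statistic (estimate over root F). The script was tested on simulated counts. The changes planted there were larger than any estimate of the 10 genes, so that run does not measure power for differences of their size. The alternatives were DESeq2 1.42.0, RLE and upper-quartile factors, no filter, an average of 50 counts or more, no fold limit, the endosperm libraries alone and each library left out. Named genes were the 10, the H1 genes, at most 4 per list by absolute log2 fold change, the 5 nearest profiles and any gene called where 5 or fewer were, and other names were chosen after their values were seen. The genes and lists were chosen with earlier results of these data known. Of the identifiers, 27390 matched RefSeq TAIR10.1, from which coordinates (1-based) and sequences come.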

Additional observations from a re-analysis of the deposited data

How the results depend on the processing

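None of the 10 genes was called in any of the 12 other settings with all reads, where their lowest adjusted p was 0.536 (edgeR or DESeq2), and 115 of 120 values kept their sign. With single libraries left out, the log2 difference of the A-type cyclin ran from -0.052 (without A) to 1.65, that of AT3G54180 from -0.048 (without B) to 0.66, and that of KNOLLE from -0.54 to 0.15 (without D, and 0.026 without B). AT3G54180 was at -0.0245 with F joined to A and B. With maternal reads the A-type cyclin ran from -1.1 to 1.1 (without B) and AT1G20930 from -0.45 to 0.26 (without C, and 0.016 without A). The median of the 10 ran from 0.47 to 0.69 with single libraries left out, and the number with separate groups from 7 to 8. Joining F and recounting separate groups were chosen after seeing the data. The number of genes called with all reads was 50 with DESeq2 and 0 to 109 with a library left out (109 without A, 9 without B, 0 without C, D or E). With maternal reads it was 11 with DESeq2, 77 with no filter and 0 to 35 with a library left out (35 without A, 15 without B, 0 without C or E). The cause was not tested. A mean of at least 50 maternal reads left none of the 10. No paired analysis was possible because the columns carry no replicate number. The H1/H1 endosperm group has 2 libraries, so leaving out either takes its spread from the other groups, and the maternal counts of the 10 are small or 0.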
